A study of Mus musculus with 51 samples.

Results

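The cytosolic ribosome is built from a small and a large subunit, and each ribosomal protein gene of the Rps, Rpl and Rplp families supplies 1 of its proteins. The probe sets described here are all those whose only gene symbol is such a gene. The rule asked for Rps or Rpl followed by a number (with a paralog letter allowed), Rplp0 to Rplp2, or Rpsa, and left out the Rps6 kinases and the mitochondrial ribosomal proteins. It found 100 of 22626 probe sets, which stand for 48 of 12392 gene symbols. They are 22 genes of the small subunit, 24 of the large subunit and 2 of the stalk, and 6 of the 48 are paralogs whose symbol ends in l or l1. A further 102 probe sets list a ribosomal protein gene together with other symbols and are not members.

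Ribosomal protein mRNAs are abundant in all cells, and they begin with a run of pyrimidines, the 5′ terminal oligopyrimidine (TOP) tract. The kinase mTOR controls the translation of mRNAs with this tract, through the binding protein LARP1 among others, and AKT1 is a kinase upstream of mTOR. RAD001 (everolimus) inhibits mTOR complex 1. The arrays read total RNA, so what was measured is the amount of each mRNA and not how much of it was on ribosomes.

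Ventral prostates of FVB mice aged 8-10 weeks on a standard diet were compared. Among AKT1 transgenic mice on RAD001 there were 5 arrays after 12 h, 4 after 48 h, 3 after 6 d, 4 after 9 d and 6 after 15 d. Transgenic mice on placebo gave 4, 5, 1, 1 and 7 arrays in the same order of times. Wild type mice were given placebo only, with 4 arrays for 12 h, 4 for 48 h and 3 for 15 d. The promoter that drives the transgene, the cells it is active in and the dose of RAD001 are not given in the sources used here, and no wild type mice on RAD001 were analysed. The submitters' stated purpose was to tell markers of the drug's action from markers of response to it.

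The 42 arrays of 12 h, 48 h and 15 d form 1 table and the 9 arrays of 6 d and 9 d another, and the tests were kept within a table. Array medians of intensity spanned 91.6 to 109.4 (larger) and 98.1 to 110.4 (smaller). Precision is limited by how many arrays a group has. Of the 100 probe sets 79 (42 genes) passed the filter on dim probe sets in the larger table and 82 (43 genes) in the smaller. The 2 probe sets tested for Akt1 differed by 0.88 ± 0.23 (adjusted p = 0.00289 in limma) and by 0.17 ± 0.08 (adjusted p = 0.0936) on the log2 scale between transgenic and wild type placebo glands, and whether they read the transgene is not given. At 15 d alone they gave -0.28 ± 0.40 (adjusted p = 0.648) and -0.15, so they do not check the labels of that time. At 15 d the arrays fell into 2 sets on principal component 1, which held 26.5% of the variance, with no label that names the sets. Set B held 4 of 6 RAD001 and 5 of 7 transgenic placebo arrays, and set A held the others and all wild type arrays. Counts of ribosomal protein probe sets at 15 d, and the probe sets that RAD001 changed then, are therefore also given without set B. Fewer cells of a type and less RNA per cell cannot be told apart in such bulk RNA.

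The sequences around the annotated starts of 8 of the genes are shown because these genes are among those described array by array. RefSeq promoters (GRCm38.p6) were at hand for 42 of the 48 genes. Each line gives 30 bases before and 30 bases from the start on, and capitals mark every run of at least 6 pyrimidines that begins with C. Where a gene has several annotated starts, the line shows the one with the longest run, and without any run the most upstream.
Rpl22, chr4:152324406-152324465, plus strand: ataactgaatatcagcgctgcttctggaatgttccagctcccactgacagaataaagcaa
Rpsa, chr9:120127736-120127795, plus strand: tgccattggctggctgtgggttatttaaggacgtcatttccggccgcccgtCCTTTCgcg
Rps7, chr12:28635924-28635983, minus strand: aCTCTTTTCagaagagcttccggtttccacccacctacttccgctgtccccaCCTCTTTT
Rps9, chr7:3704011-3704070, plus strand: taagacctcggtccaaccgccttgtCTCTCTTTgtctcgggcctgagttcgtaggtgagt
Rps19, chr7:24884883-24884942, plus strand: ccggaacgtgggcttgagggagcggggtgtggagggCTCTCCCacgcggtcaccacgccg
Rps2, chr17:24720033-24720092, plus strand: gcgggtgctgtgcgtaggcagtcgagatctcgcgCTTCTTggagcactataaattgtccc
Rpl41, chr10:128549139-128549198, minus strand: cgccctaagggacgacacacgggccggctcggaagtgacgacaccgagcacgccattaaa
Rps27l, chr9:66946056-66946115, plus strand: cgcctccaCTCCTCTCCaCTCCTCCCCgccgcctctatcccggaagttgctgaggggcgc

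Such a run on the sense strand of this window was found in 31 of the 42 ribosomal protein genes (73.8%) and in 43.8% of all 27025 genes of the table. The motif CCGGAAG, searched on both strands over the whole 300 bases, was found in 21 of 42 and in 9.93% of all genes, and AAGATGGCG in 3 of 42 (7.14%) and in 1.64%. These are matches of letters, and annotated starts can lie away from the base where transcription begins. Rpl22 and Rpl41 have no such run in the windows shown, while Rpsa, Rps7, Rps9, Rps19, Rps2 and Rps27l have 1 or 2.

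The first comparison asked how ribosomal protein mRNAs differed between transgenic and wild type glands under placebo. Each change is given on the log2 scale, plus or minus its standard error (SE) from limma, with p-values adjusted over all probe sets of the table by the Benjamini-Hochberg method and called below 0.05. Averaged over 12 h, 48 h and 15 d, 25 of 79 probe sets fell (31.6%, against 18.4% of all 13574 probe sets tested) and 5 rose (6.33%, against 15.1%). Those that fell belong to 21 genes and those that rose to 2, Rpl41 and Rps27l. The differences were small. The median over the 79 was -0.08, against -0.04 over all probe sets. Of the 79, 60 lay below 0. Most of all probe sets did too, as their median was below 0 as well, but their share is not given here. Of the called probe sets 0 changed 2-fold. After quantile normalisation 47 fell and 1 rose (17.9% and 16.4% of all), with a median of -0.16 against -0.03 over all probe sets. After median scaling 19 fell and 6 rose (15.4% and 16.5% of all), with a median of -0.06.

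**Figure D1:**
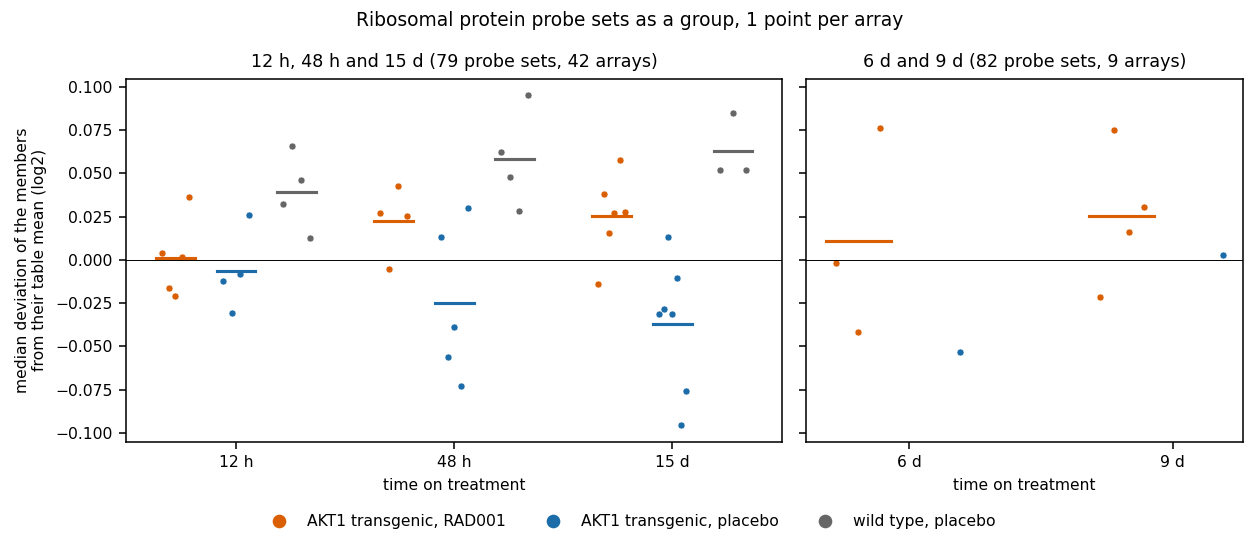
Median deviation of the tested ribosomal protein probe sets from their mean over the table (log2 scale), 1 point per array, with the group mean as a bar where a group has more than 1 array. At 15 d the transgenic placebo arrays (-0.095 to 0.013) lie below the wild type arrays (0.052 to 0.085), and all arrays stay within 0.1 of 0.

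The median deviation of every array stayed within 0.1 log2 units of 0, as the plot of array medians shows. The median deviation of the 79 probe sets lay from -0.031 to 0.026 in transgenic and from 0.013 to 0.066 in wild type placebo arrays at 12 h. At 48 h it lay from -0.073 to 0.030 in transgenic and from 0.029 to 0.095 in wild type arrays. The groups overlapped at 12 h and 48 h and did not overlap at 15 d.

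In the small subunit 13 of 42 probe sets fell and 3 rose, with a median of -0.04. In the large subunit 12 of 35 fell and 2 rose, with a median of -0.12. Rplp0 and Rplp2, which belong to the stalk that recruits translation factors, were not called in the averaged comparison (-0.12 ± 0.07 with adjusted p = 0.19, and 0.07 ± 0.03 with adjusted p = 0.0914).

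Rpsa encodes a protein of the small subunit head that was first described as a laminin receptor. It measured 2260, 2340, 2520 and 2150 in transgenic placebo arrays at 12 h, against 3380, 3060, 3190 and 3490 in wild type arrays. At 48 h it measured 2830, 2570, 2600, 2480 and 2390 in transgenic and 3360, 3940, 4060 and 3220 in wild type arrays. At 15 d the transgenic arrays ran from 2490 to 2900 with a median of 2672, against 3950, 4300 and 3410 in wild type arrays. Every transgenic array lay below every wild type array of its time, and the averaged difference was -0.51 ± 0.05 (adjusted p = 3.06e-09 in limma).

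Rpl22, a large subunit protein that mice can live without, showed the largest difference among the members, but only in 1 of its 2 probe sets. Probe set 1448398_s_at measured 247, 305, 373 and 282 in transgenic placebo arrays at 12 h, against 481, 446, 446 and 490 in wild type arrays. At 15 d it ran from 308 to 467 with a median of 383 in transgenic arrays, against 748, 729 and 739 in wild type arrays. The groups did not overlap at any of the 3 times, and the averaged difference was -0.71 ± 0.09 (adjusted p = 7.14e-08). The other probe set, 1416603_at, measured 1920, 1900, 1940 and 1700 in transgenic and 1910, 1960, 1730 and 1740 in wild type arrays at 12 h, where the groups overlap. Its averaged difference was -0.07 ± 0.42 with 1 array of 15 d listed at 0, and -0.07 ± 0.05 (adjusted p = 0.271) with that value taken as missing.

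Among small subunit genes, both probe sets of Rps7 fell, by 0.35 ± 0.04 (1435593_x_at) and 0.20 ± 0.03 (1419364_a_at). Probe set 1435593_x_at gave 1420, 1540, 1460, 1560 and 1620 in transgenic and 2110, 2320, 1960 and 2170 in wild type arrays at 48 h, with no overlap. Rps9, which lies at the mRNA entry side of the subunit, fell by 0.32 ± 0.06 (adjusted p = 2.17e-05), and at 12 h and 48 h alone it missed the threshold (adjusted p = 0.0569). Rps19, a gene mutated in Diamond-Blackfan anaemia, fell by 0.25 ± 0.06 (adjusted p = 0.000738). Rps6, the substrate of the S6 kinases below mTOR, fell by 0.32 ± 0.11 (adjusted p = 0.0256), and the call was lost without wild type replicate 3 of 15 d (adjusted p = 0.0564) and without wild type replicate 2 of 48 h (adjusted p = 0.0502). Rps24 fell in 1 of 6 probe sets, the dim 1455195_at (-0.64 ± 0.14), while the other 5 lay from -0.06 to 0.05.

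In the large subunit, Rpl10a fell by 0.21 ± 0.04, and the values at 12 h were 2600, 2870, 3120 and 2810 in transgenic and 3100, 3600, 3330 and 3190 in wild type arrays. These overlap in 1 array. Rpl7a, Rpl8, Rpl6 and Rpl4, core proteins of the subunit, fell by 0.16 ± 0.03, 0.18 ± 0.04, 0.19 ± 0.04 and 0.15 ± 0.04. Rpl27 fell in 1 of 3 probe sets (-0.21 ± 0.04). Rpl35 fell in 1 of 6, the dim 1454833_at (-0.22 ± 0.07, lost with an adjusted p = 0.0996 without wild type replicate 1 of 15 d).

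Rpl41, which encodes the smallest protein of the large subunit, rose in both probe sets, by 0.21 ± 0.05 (1422623_x_at) and 0.12 ± 0.03 (1455578_x_at). After quantile normalisation 1422623_x_at gave 0.10 (adjusted p = 0.0676), short of the threshold. At 12 h probe set 1422623_x_at measured 6090, 5700, 5590 and 6090 in transgenic arrays, against 4580, 4780, 4790 and 4690 in wild type arrays. The groups did not overlap then and overlapped at 48 h and 15 d. Rps27l, a paralog of Rps27 known as a p53 target, rose in all 3 probe sets (0.22 ± 0.06, 0.21 ± 0.06 and 0.15 ± 0.06, the last with an adjusted p = 0.0335 that reached up to 0.0846 when 1 array was left out). After quantile normalisation these were 0.15, 0.09 and 0.05 with adjusted p = 0.0551, 0.218 and 0.564, and at 12 h and 48 h alone the adjusted p were 0.0632, 0.257 and 0.465, so that 0 of the 3 passed in either. At 15 d probe set 1450925_a_at ran from 2500 to 3190 with a median of 2700 in transgenic arrays, against 2030, 1850 and 2340 in wild type arrays, with no overlap, and in set A alone the difference of 15 d was 0.34 (adjusted p = 0.166). Rps27 itself gave -0.05 ± 0.10 (adjusted p = 0.759) in the dim probe set 1460699_at, which ran from 50.1 to 107.8 in transgenic placebo arrays of 15 d.

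None of the other paralogs was called in the averaged comparison. Rpl22l1, the paralog of Rpl22, gave -0.25 ± 0.12 (adjusted p = 0.099), and its 12 h values of 607, 562, 731 and 616 in transgenic and 663, 952, 936 and 746 in wild type arrays overlapped. Rpl7l1, a paralog of Rpl7, gave 0.09 ± 0.08 and -0.12 ± 0.46 in its 2 probe sets, and the second, 1452049_at, is listed at 0 on 2 transgenic placebo and 3 RAD001 arrays of 15 d. With zeros taken as missing it gave 0.27 ± 0.08 (adjusted p = 0.00932), which passed. At 12 h alone Rpl7l1 1426386_at rose by 0.46 ± 0.14 (adjusted p = 0.0201), with 238, 194, 278 and 225 in transgenic and 173, 172, 171 and 160 in wild type arrays, which did not overlap. The call was lost without transgenic placebo replicate 3 (adjusted p = 0.085) and without wild type replicate 4 of 12 h (adjusted p = 0.0526). Rpl39l, Rpl3l and Rps4l lay below the filter on dim probe sets in both tables. Rps29 has a probe set (1438859_x_at) listed at 0 on 1 RAD001 array of 48 h, and with that value missing it gave 0.15 ± 0.04 (adjusted p = 0.00536). With that value at the floor the 3 probe sets of Rps29 lay from 0.02 to 0.15, and 0 of them were called.

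**Figure D2:**
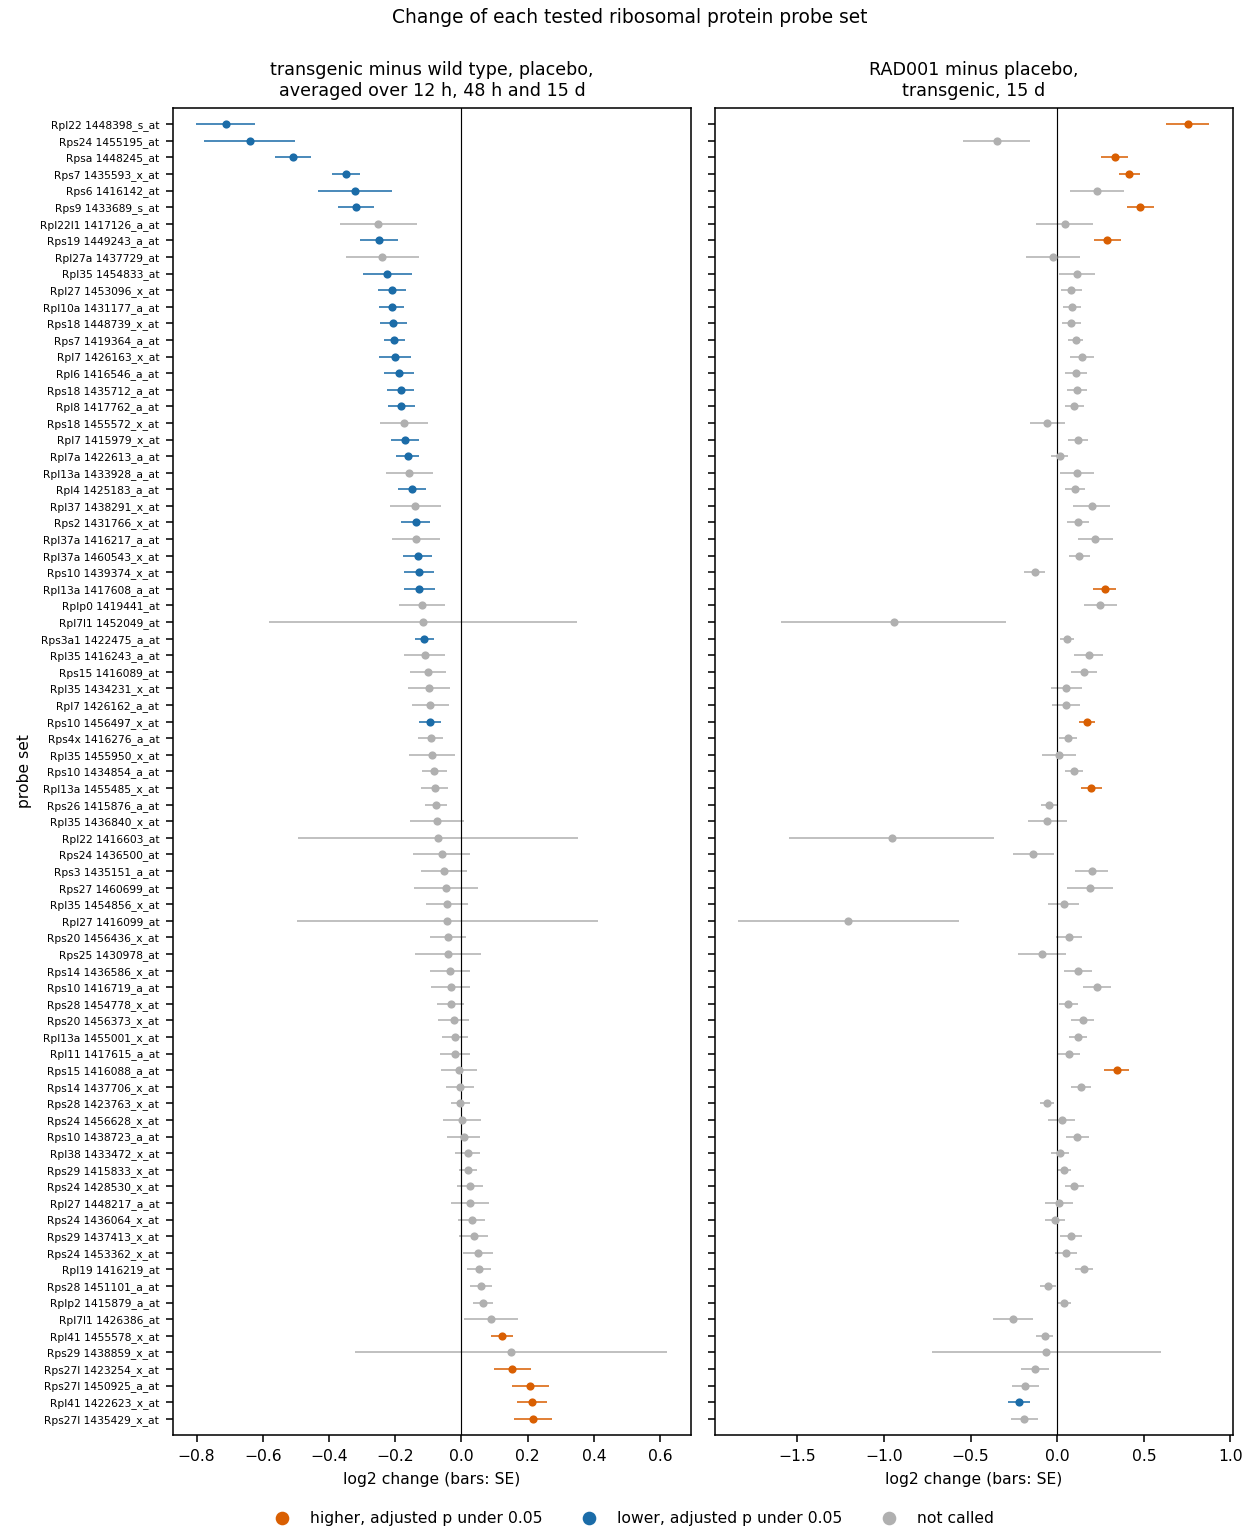
Log2 change of each of the 79 probe sets with its SE, transgenic minus wild type under placebo (left, averaged over 3 times) and RAD001 minus placebo in transgenic glands at 15 d (right), in the order of the left panel, with separate horizontal scales. On the left 25 probe sets fell and 5 rose, and on the right 9 rose and 1 fell; both panels share the transgenic placebo arrays of 15 d, and the 4 bars far wider than the rest belong to probe sets with values listed at 0.

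Of 18 genes with several tested probe sets, 1 (Rps7) fell in all of them, 9 fell in some but not all, 2 (Rpl41 and Rps27l) rose in all, and 6 had none called. Probe sets ending in _x_at can match other sequences as well, such as the pseudogenes that are common in this family, and 9 of 35 of them fell and 4 rose. Those ending in _at or _a_at, 42 in all, fell in 14 cases and rose in 1, and both ending in _s_at fell. Among the 102 probe sets shared with other symbols 91 were tested, of which 45 were lower and 3 higher in transgenic glands.

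Markers of other cell types moved with the genotype. Luminal epithelial markers were called higher for 7 and lower for 0 of 10 genes, and smooth muscle markers were called lower for 9 and higher for 0 of 11 genes. The smooth muscle score of an array lay from -0.81 to 0.005 in transgenic and from 0.15 to 0.72 in wild type placebo arrays, and the luminal score from -0.17 to 0.70 in transgenic and from -0.56 to -0.084 in wild type arrays. Fibroblast markers were lower for 8 of 10 genes and basal epithelial markers for 5 and higher for 1 of 7. Of the rarer lists, 1 of 2 endothelial genes rose, 1 of 6 macrophage and 1 of 5 cell cycle genes fell, 0 of 2 lymphocyte, 0 of 1 adipocyte and 0 of 1 erythrocyte genes were called, and no seminal vesicle marker was bright enough to be tested. The part of cell type makeup in the ribosomal protein differences was not tested.

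By time, 6 probe sets fell and 4 rose at 12 h (10.2% and 10.8% of all), 18 fell and 2 rose at 48 h (14.2% and 11.4%), and 18 fell and 4 rose at 15 d (10.9% and 10.1%). After quantile normalisation 28 fell and 2 rose at 12 h (10.7% and 11.1% of all). At 48 h 36 then fell and 0 rose (14.9% and 12.2%), and at 15 d 26 fell and 2 rose (10.5% and 12.1%). With array weights 18 fell and 6 rose at 12 h (15.8% and 15.2%). Median scaling gave fewer lower, 10 at 48 h (12.1% of all) and 10 at 15 d (9.06%). Blocking on replicate number left 5 lower at 15 d (2.29%), as did fitting the compared groups alone (1.72%). An F-test across all probe sets found that the genotype difference varied between the times for 9 of 79 (11.4%, against 21.3% of all). Rps6 gave -0.24 at 12 h, -0.88 ± 0.19 at 48 h and 0.16 at 15 d. Its 48 h values were 183, 191, 159, 127 and 143 in transgenic and 301, 348, 253 and 275 in wild type arrays, with no overlap. Rps9 gave -0.22, -0.11 and -0.62 ± 0.10 at the 3 times, and at 15 d it ran from 1680 to 2430 with a median of 1941 in transgenic arrays, against 3160, 2930 and 3220 in wild type arrays. Rpl38, linked to the translation of Hox mRNAs, gave 0.09 and 0.19 ± 0.06 at 12 h and 48 h and -0.23 ± 0.07 at 15 d. Its 48 h call was lost in 4 of 22 other fits, 3 of which each left out 1 array (adjusted p of up to 0.56 in limma). At 15 d Rpl38 measured 4330 and 4350 in the set A and 3920 to 4100 in the set B transgenic placebo arrays. Wild type replicates 2 and 3 measured 4720 and 4660.

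Fewer of the 15 d differences were called without set B. In set A alone (2 transgenic and 3 wild type arrays) 3 probe sets fell and 0 rose at 15 d (0.737% and 1.95% of all probe sets), those of Rpl22 (-0.71, adjusted p = 0.00623), Rpsa (-0.54, adjusted p = 0.00712) and Rps9 (-0.44, adjusted p = 0.0169). Rplp0 measured 4090 and 4240 in the set A and 2770, 3380, 2860, 2040 and 2850 in the set B transgenic placebo arrays, against 3970, 4180 and 4490 in wild type arrays. Its difference of -0.45 ± 0.12 at 15 d was -0.02 (adjusted p = 0.98) in set A alone. The averaged comparison called 30 lower and 5 higher in set A alone (17.8% and 17.1% of all).

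**Figure D3:**
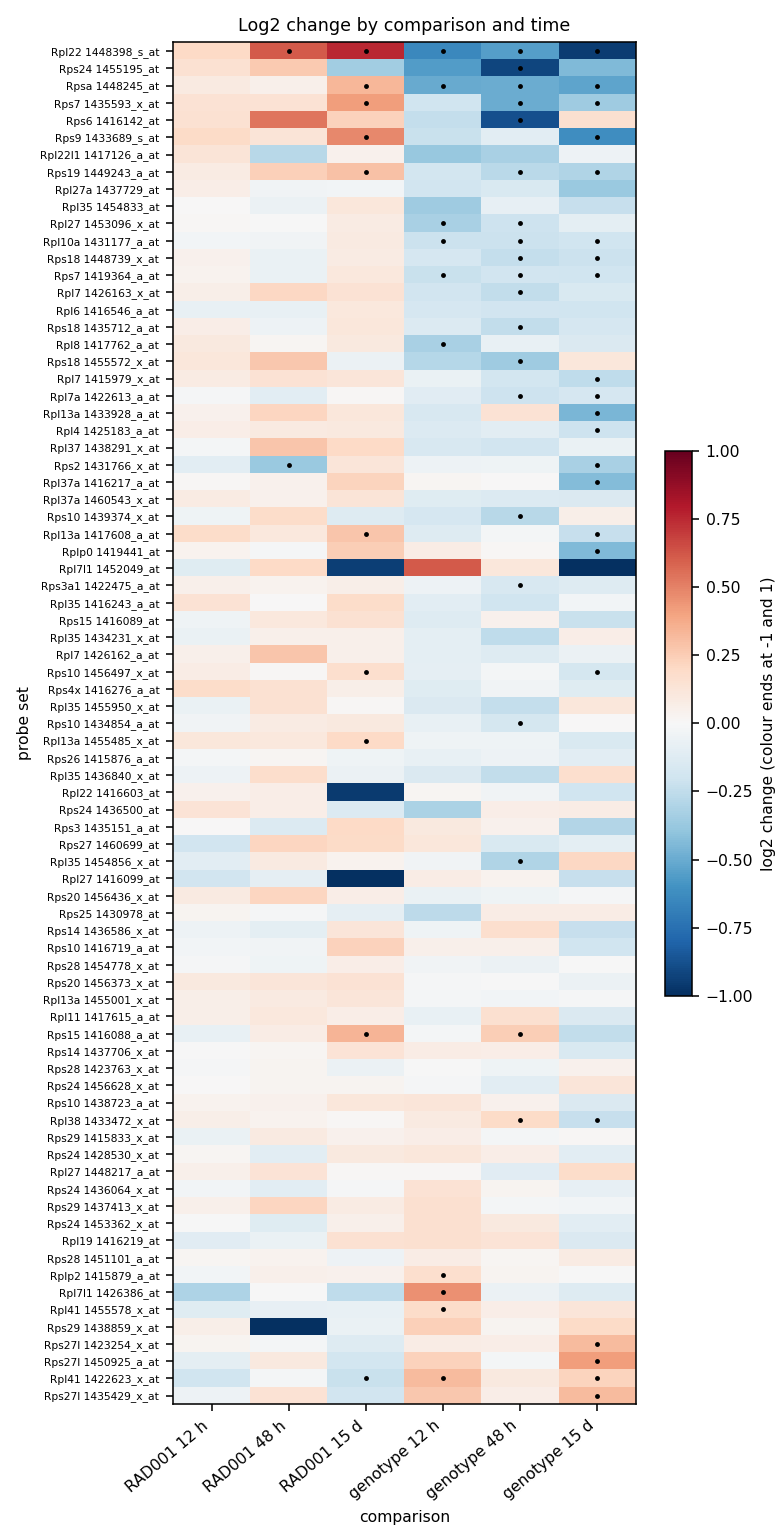
Log2 change of the 79 probe sets (rows, in order of the averaged genotype difference) for RAD001 minus placebo in transgenic glands and for transgenic minus wild type under placebo, at 12 h, 48 h and 15 d; dots mark adjusted p under 0.05 in limma, and colours end at -1 and 1. Under RAD001 0 probe sets are marked at 12 h, 2 at 48 h and 10 at 15 d, and the darkest unmarked cells belong to probe sets with values listed at 0.

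The second question was what the mTOR inhibitor did to these mRNAs in transgenic glands. At 12 h 0 of 79 ribosomal protein probe sets were called in limma, against 1.47% of all probe sets, and 6 had an unadjusted p under 0.05. The median change was 0.02, the same as over all probe sets (0.02), and its sign turned under median scaling (-0.04 for both the members and all probe sets). For 70 of 79 the 95% confidence interval lay within 0.5 log2 units of 0. Rps4x (0.18 ± 0.06, adjusted p = 0.176), a small subunit gene of the X chromosome, had the smallest p.

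At 48 h 1 probe set rose and 1 fell (1.27% each, against 1.97% and 1.47% of all). Rpl22 1448398_s_at measured 542, 442, 445 and 442 in RAD001 arrays and 314, 340, 302, 255 and 319 in placebo arrays, with no overlap (0.61 ± 0.15, adjusted p = 0.0152). Its call was lost without RAD001 replicate 1 (adjusted p = 0.0575) and without placebo replicate 4 (adjusted p = 0.0562). Rps2, a small subunit protein near the mRNA channel, measured 2970, 2840, 2740 and 2890 in RAD001 arrays, against 3340, 3550, 3610, 4010 and 4040 in placebo arrays. It fell by 0.37 ± 0.08 (adjusted p = 0.00387) without overlap, and after quantile normalisation the change was -0.23 (adjusted p = 0.0629). Rps6 gave 0.53 ± 0.19 (adjusted p = 0.116), with 214, 203, 254 and 251 in RAD001 and 183, 191, 159, 127 and 143 in placebo arrays, which did not overlap. Rps29 1438859_x_at measured 4540, 4750 and 4270 on 3 RAD001 arrays and is listed at 0 on the fourth, against 3320 to 4130 in placebo arrays, and gave 0.26 ± 0.08 (adjusted p = 0.0451) with that value missing. At 48 h 2 of 10 luminal genes and 1 of 5 cell cycle genes were lower, and 2 of 11 smooth muscle, 2 of 7 basal and 2 of 10 fibroblast genes were higher on RAD001.

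At 15 d 9 of 79 probe sets rose (11.4%, against 2.42% of all) and 1 fell (1.27%, against 3.1%). The median change was 0.08, against 0.02 over all probe sets. Of the 79, 58 lay above 0. Most of all probe sets did too, as their median was above 0 as well, but their share is not given here. The 9 stand for 8 genes, of which 6 belong to the small subunit, and 0 of the 10 changed 2-fold. After quantile normalisation 17 rose and 0 fell (2.91% and 3.51% of all). Some other settings gave fewer that rose. Array weights gave 5 (1.37% of all), blocking on replicate number 4 (1.09%) and the compared groups alone 3 (0.553%). With 1 probe set per gene 4 of 42 rose (2.51%).

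Rpl22 1448398_s_at rose most, by 0.75 ± 0.12 (adjusted p = 0.000153). It measured 518, 520, 508, 666, 970 and 824 in RAD001 arrays, against 308 to 467 with a median of 383 in placebo arrays, with no overlap. Its other probe set gave 0.19 ± 0.07 (adjusted p = 0.11) with 1 RAD001 value, listed at 0, taken as missing.

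Rps9 rose by 0.48 ± 0.08 (adjusted p = 0.000125), with 2640, 2900, 2730, 2540, 3160 and 2930 in RAD001 and 1680 to 2430 in placebo arrays. Rps7 1435593_x_at rose by 0.42 ± 0.06 (adjusted p = 2.54e-05), with 1950 to 2590 in RAD001 and 1550 to 1780 in placebo arrays. Neither overlapped. Rpsa rose by 0.33 ± 0.08 (adjusted p = 0.00642), and its values of 2780 to 3900 in RAD001 and 2490 to 2900 in placebo arrays overlapped.

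Rps15 1416088_a_at, a protein of the subunit head near the decoding centre, rose by 0.34 ± 0.07 with 1750 to 2150 in RAD001 and 1300 to 1900 in placebo arrays. Rps19 rose by 0.29 ± 0.08, Rpl13a by 0.27 ± 0.07 and 0.20 ± 0.06 in 2 of 4 probe sets, and Rps10 by 0.17 ± 0.05 in 1 of 5. Rpl13a is known for its role in an interferon-induced block of translation. The call of Rps19 was lost in 4 of the fits that each left out 1 array, with an adjusted p of up to 0.0735, that of the second Rpl13a probe set in 7 (up to 0.105) and that of Rps10 without placebo replicate 9 (0.0558). Rpl41 1422623_x_at fell by 0.22 ± 0.06 (adjusted p = 0.0311), with 3820 to 5210 in RAD001 and 4720 to 6000 in placebo arrays, which overlap, and lost the call without RAD001 replicate 6 (adjusted p = 0.126). Rps27l, in 3 probe sets, gave values from -0.19 to -0.13 that did not pass.

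**Figure D4:**
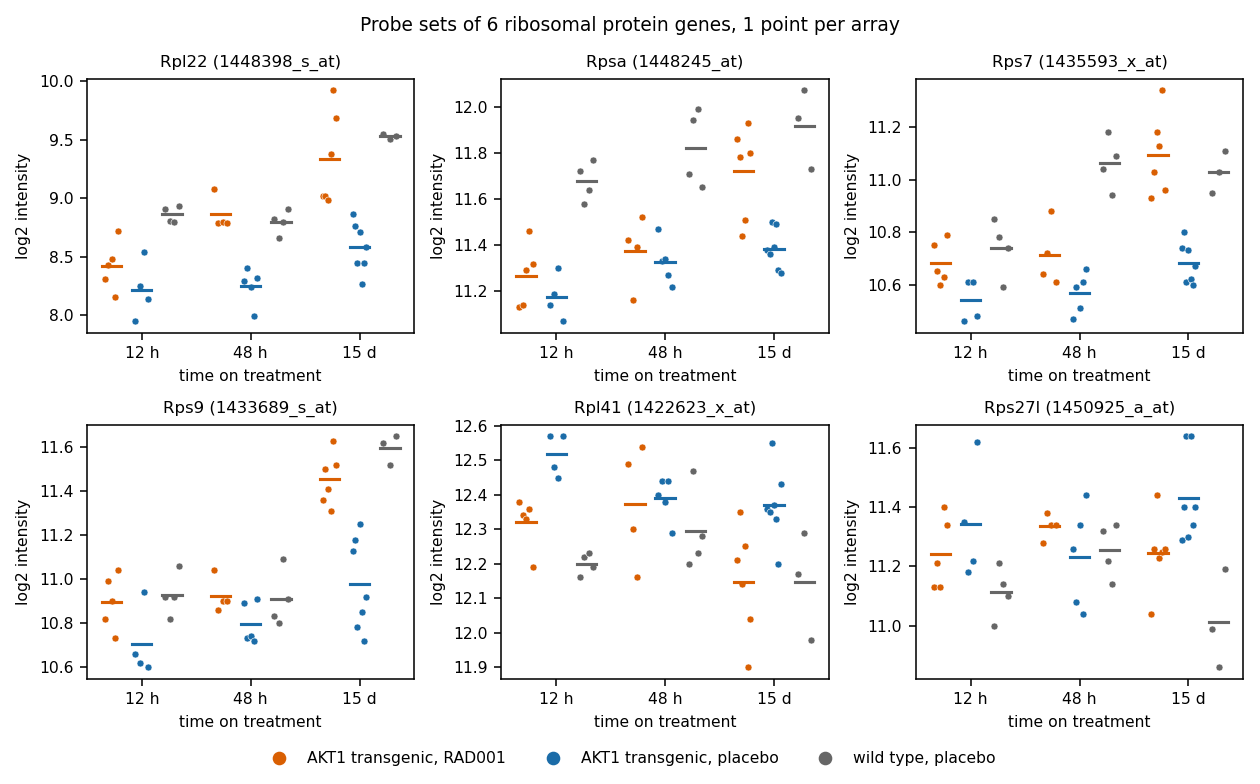
Log2 intensity of 6 probe sets on each array at 12 h, 48 h and 15 d, with group means as bars and a separate vertical scale in each panel. At 15 d the RAD001 arrays of Rpl22, Rps7 and Rps9 lie above all transgenic placebo arrays; Rpl41 and Rps27l are higher in transgenic than in wild type placebo arrays at 12 h and 15 d in their means.

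The probe sets of Rpl22, Rpsa, Rps7, Rps9, Rps19, Rpl13a (1417608_a_at) and Rps10 (1456497_x_at) that rose with RAD001 at 15 d also differed in genotype, as the plot of both sets of changes shows. Their averaged genotype differences were -0.71, -0.51, -0.35, -0.32, -0.25, -0.13 and -0.09, beside RAD001 changes of 0.75, 0.33, 0.42, 0.48, 0.29, 0.27 and 0.17. Of all 79 members, 25 fell in the averaged genotype comparison. The other probe sets that rose with RAD001 were Rps15 1416088_a_at and Rpl13a 1455485_x_at. At 12 h, 48 h and 15 d their genotype differences were -0.02, 0.25 and -0.25 for Rps15, and -0.04, -0.04 and -0.16 for Rpl13a. Both comparisons use the same transgenic placebo arrays of 15 d, so values of opposite sign are not independent of each other.

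The array sets bear on the 15 d result. In set A (2 RAD001 and 2 placebo arrays) 0 of 79 were called, against 0.0663% of all probe sets higher and 0.383% lower, and the median was 0.03. There Rpl22 gave 0.20 (adjusted p = 0.893), Rps9 0.28 (adjusted p = 0.476), Rps7 0.21 (adjusted p = 0.58), Rpsa 0.44 (adjusted p = 0.137) and Rps15 0.36 (adjusted p = 0.282), all in the same direction as over both sets. The others gave 0.09 for Rps19 (adjusted p = 0.9995), 0.23 and 0.32 for Rpl13a (adjusted p = 0.608 and 0.204), 0.14 for Rps10 (adjusted p = 0.754) and -0.07 for Rpl41 (adjusted p = 0.9995). In set B (4 RAD001 and 5 placebo arrays) 8 rose and 1 fell (3.26% and 2.67% of all), with Rpl22 at 1.005 (adjusted p = 1.99e-05), Rps9 at 0.56 (adjusted p = 0.000213), Rps7 at 0.51 (adjusted p = 2.43e-05) and Rpsa at 0.28 (adjusted p = 0.0752). With the set as a term in the fit 11 rose and 1 fell, counts for which the share of all probe sets is not given here. The smooth muscle score lay from -0.15 to 0.36 in RAD001 and from -0.81 to 0.005 in placebo arrays of 15 d, with 4 of 11 genes of that list higher and 0 lower, and the luminal score from -0.27 to 0.20 in RAD001 and from -0.17 to 0.27 in placebo arrays, with 2 of 10 genes lower. Of the other lists, 2 of 7 basal, 2 of 10 fibroblast, 1 of 6 macrophage, 1 of 1 adipocyte and 1 of 5 cell cycle genes were higher, and 1 fibroblast and 1 cell cycle gene were lower. Their part in the ribosomal protein changes was not tested.

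The F-test for a RAD001 effect that differs between 12 h, 48 h and 15 d called 1 of 79 (1.27%, against 0.398% of all), Rps2, with -0.11, -0.37 and 0.12 (adjusted p = 0.0319).

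At 6 d and 9 d, with 1 placebo array each, 0 of 82 probe sets were called in limma (0.803% of all), 8 had an unadjusted p under 0.05, and the median was 0.02. Rpl22 1448398_s_at measured 329, 382 and 313 in RAD001 arrays and 247 in the placebo array at 6 d, and 578, 543, 342 and 399 in RAD001 arrays and 277 in the placebo array at 9 d. Every RAD001 array lay above its placebo array, and the change over both days was 0.59 ± 0.21 (adjusted p = 0.374). Rpsa gave 0.38 ± 0.13 (adjusted p = 0.352) and Rps15 1416088_a_at 0.49 ± 0.18 (adjusted p = 0.383), while Rps9 gave -0.004 ± 0.12 and Rps7 1435593_x_at 0.09 ± 0.09. The placebo array decides these values on either day, and its spread was not measured.

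Changes over time within a group were read last, where time cannot be told apart from handling on different days. In transgenic placebo glands 0 of 79 were called between 48 h and 12 h in limma (0% of all, 0 with an unadjusted p under 0.05), and in transgenic glands on RAD001 0 of 79 (0.0368% of all, 7 unadjusted). In wild type glands 3 rose and 4 fell (9.29% and 7.15% of all), among them Rps6 (0.65 ± 0.20) and Rps7 1435593_x_at (0.32 ± 0.08) upwards and Rpl11 (-0.31 ± 0.08), a regulator of MDM2, downwards.

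From 48 h to 15 d, 15 rose and 11 fell in transgenic glands on RAD001 (14.6% and 15.6% of all), 15 rose and 17 fell in transgenic placebo glands (23.3% and 24.4%), and 5 rose and 2 fell in wild type glands (1.39% and 1.05%). Rpl11 was higher at 15 d in all 3 (0.28 ± 0.07, 0.32 ± 0.07 and 0.62 ± 0.09), as was Rpl22 1448398_s_at (0.47 ± 0.14, 0.33 ± 0.13 and 0.73 ± 0.17). Rpl27a 1437729_at was lower in all 3 (-1.05 ± 0.18, -1.06 ± 0.16 and -0.84 ± 0.21), with 124 to 235 in RAD001, 118 to 208 in transgenic placebo and 175 to 211 in wild type arrays at 15 d, against 242 to 458, 277 to 364 and 262 to 425 at 48 h. Rps9 rose in glands on RAD001 (0.53 ± 0.09) and in wild type glands (0.69 ± 0.11) and was not called in transgenic placebo glands. In set A alone 13 were called on RAD001 and 9 under placebo in transgenic glands, in either direction. The shares of all probe sets called in set A are not given here. Between 9 d and 6 d on RAD001 0 of 82 were called in limma (0% of all, 2 unadjusted).

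Other mRNAs known to carry a TOP tract, or to fuse a ribosomal protein to ubiquitin or a ubiquitin-like protein, were read as a list. It held 21 symbols, of which 16 were tested in 32 probe sets. Gnb2l1 and Rack1 on it are symbols of the same gene, and Rpl36al is a ribosomal protein gene outside the member rule. Between genotypes 18 of 32 fell and 0 rose (10 of 16 genes), against 18.4% and 15.1% of all probe sets, with a median of -0.24. Npm1, which encodes nucleophosmin, fell by 0.57 ± 0.08, Pabpc1, the poly(A)-binding protein gene, by 0.38 ± 0.08, the initiation factor gene Eif3e by 0.73 ± 0.08 and Eif4b by 0.59 ± 0.09. The elongation factor genes Eef1a1 (-0.02 ± 0.03) and Eef2 (-0.08 ± 0.07) and the fusion gene Fau (0.06 ± 0.04) were not called. With RAD001 at 15 d 6 of 32 rose and 0 fell, in 4 genes (Npm1, Nap1l1, Eif3f and Eif3e), against 2.42% of all that rose, with a median of 0.25. In set A alone 0 of the 32 were called, with a median of 0.13, and in set B 9 rose and 1 fell. At 12 h 1 of 32 rose (1.47% of all were called in either direction), at 48 h 3 rose (1.97% of all), and at 6 d and 9 d 0 were called.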

How the data were processed

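Total RNA (10 µg) was labelled with biotin for Affymetrix arrays, per the labels' protocols. The authors deposited linear probe set intensities, with a scaling between arrays that the sources used here do not name. Symbols came from the platform annotation, in which 20378 probe sets have 1 symbol, 691 several and 1557 none. Here intensities below 16 were set to 16, log2 was taken, and probe sets under the 40th percentile of mean log2 were left out, as were 2 with values beyond 100000. Groups were compared in limma 3.58.1 (R 4.3.3) with a mean for each group, fitted over the whole table, an intensity trend and Benjamini-Hochberg adjustment at 0.05. Probe sets of a gene were tested apart. The labels call the arrays biological replicates, and p-values measure only the spread between them. No 2 arrays were identical (highest correlation 0.983). Members and lists were chosen with earlier results of these data known. Any member gene could be named, with values per array for up to 10 called changes per comparison and direction, the brightest, dimmest and most variable members, the stalk genes, Rpsa and the paralogs. The fit was tested on simulated data. The alternatives tried are given in the closing section.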

Additional observations from a re-analysis of the deposited data

Results flagged for a closer look

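Single arrays far from the others of their group were looked for in 189 sets of values (20 probe sets and the array median, in groups of 4 to 7 arrays). Of these sets 11 held one. Chance gives about 1 in 20 such sets. The gaps are in log2 intensity.

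Values listed at 0, which stand at the floor of 4.0, account for 3 of them. They are Rpl22 1416603_at and Rpl27 1416099_at on RAD001 replicate 6 of 15 d, where the next arrays lay at 10.73 and 11.30, and Rps29 1438859_x_at on RAD001 replicate 4 of 48 h, with the next at 12.06. Among RAD001 arrays, Rpl22 1448398_s_at was high at 9.08 on replicate 1 of 48 h, Rpl41 1422623_x_at was low at 12.19 on replicate 5 of 12 h, Rpl7l1 1426386_at was low at 7.68 on replicate 1 of 48 h, and Rps24 1455195_at was low at 6.42 on replicate 3 of 9 d. Among transgenic placebo arrays of 12 h, Rpl22 1416603_at was low at 10.73 on replicate 4 and Rplp2 at 11.71 on replicate 2. Among wild type arrays of 12 h, Rpl7l1 1426386_at was low at 7.32 on replicate 4 and Rplp0 at 11.85 on replicate 1.

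The genotype difference changed with time for 9 probe sets in the F-test. The adjusted p in limma was 0.00499 for Rpl38, 0.0142 for Rps9, 0.0185 for Rps15, 0.0186 for Rps6, 0.0204 for Rpl19, 0.0305 for Rpl13a 1433928_a_at, 0.0401 for Rpl35 1454856_x_at, 0.0411 for Rplp0 and 0.0426 for Rps27l 1450925_a_at. In set A alone 2 probe sets were called, and the share of all probe sets called there was not computed. The RAD001 change differed with time for Rps2 (adjusted p = 0.0319).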

How the results depend on the processing

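Of 382 counts and medians recomputed under other settings 309 kept their value within the limits set, 72 moved and 1 changed sign, and of 849 values of single probe sets 738 kept their call, 110 lost it and 1 changed sign. The cause was not tested unless a setting tests fewer probe sets or arrays. Counts below are of ribosomal protein probe sets. Those without a share of all probe sets, here or above, cannot be set against one. Quantile normalisation gave 47 lower and 1 higher for the averaged genotype comparison (median -0.16), 28 and 2 at 12 h (-0.18), 36 and 0 at 48 h (-0.19) and 2 higher at 15 d, with Rplp2 at -0.046 in place of 0.17 at 12 h. For RAD001 it gave 4 higher and 0 lower at 48 h (0.13), 17 and 0 at 15 d (0.12), 1 higher at 6 d and 9 d (0.13), and 0 called by time. Median scaling gave 10 lower at 48 h and 10 at 15 d between genotypes, and for RAD001 medians of -0.039 at 12 h and 0.10 at 6 d and 9 d. Scaling to the middle 96% gave 1 higher at 48 h and 11 lower at 15 d (-0.089). With 1 probe set per gene 42 were tested in the larger table. Of these 2 rose and 13 fell in the averaged genotype comparison (14.2% and 19.2% of all), 1 and 9 at 48 h (12.2% and 14.4%), and 1 rose at 15 d (9.07%). RAD001 gave 0 higher at 48 h (2.02%) and 4 higher and 0 lower at 15 d (2.51% and 3.26%). The time comparisons called 3 (wild type, 48 h minus 12 h, 8.64% of all higher and 8.5% lower) and 4 (wild type, 15 d minus 48 h, 0.966% and 0.852%). From 48 h to 15 d 17 were called in transgenic placebo glands (21.8% and 26.2%) and 13 on RAD001 (13.7% and 17.5%). Array weights gave 18 lower at 12 h (15.8% of all) and 4 higher at 48 h (18% of all) between genotypes. For RAD001 they gave 2 higher and 1 lower at 12 h (5.48% and 3.42% of all), 3 higher at 48 h (4.24%) and 5 higher at 15 d (1.37%). In wild type glands from 48 h to 15 d 14 were called (4.85% of all higher and 4.19% lower). The replicate block, although the numbers do not pair the arrays (deviations of same-numbered arrays correlated above 0.1 in 2 of 22 pairs), gave 10 lower at 12 h and 2 higher and 5 lower at 15 d between genotypes, and 2 and 4 higher for RAD001 at 48 h and 15 d. Without arrays with over 500 zeros 2 were higher between genotypes at 15 d, 5 rose with RAD001 at 15 d and 0 were called for RAD001 by time. The compared groups alone gave 1 higher and 5 lower between genotypes at 15 d, and for RAD001 2 higher at 48 h and 3 higher and 0 lower at 15 d. Settings chosen after seeing the data were the array set and zeros as missing. The set as a term gave 0 higher and 6 lower between genotypes at 15 d, 3 higher for RAD001 at 48 h and 11 called in transgenic placebo glands from 48 h to 15 d. Set A alone gave 0 and 3 between genotypes, 0 and 0 for RAD001 (median 0.031) at 15 d, 9 and 13 called over time in transgenic placebo and RAD001 glands, 2 called by time for the genotype and 0 for RAD001. Zeros as missing gave 7 higher between genotypes at 12 h and 2 higher for RAD001 at 48 h.

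Leaving out each array gave 4 to 5 higher and 21 to 27 lower for the averaged genotype comparison, 2 to 4 and 5 to 7 at 12 h, 0 to 2 and 13 to 18 at 48 h, and 1 to 4 and 9 to 22 at 15 d. For RAD001 it gave 0 and 0 at 12 h, 0 to 1 higher and 1 lower at 48 h, 7 to 11 higher and 0 to 2 lower at 15 d, and 0 and 0 at 6 d and 9 d. Leaving out the placebo array of 6 d or of 9 d gave no value. Calls at 6 d and 9 d rest on a single placebo array a day.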

Other observations

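The tested ribosomal protein probe sets varied largely apart from each other. The correlation between 2 of them over the 42 arrays of the larger table had a median of 0.04 over 3081 pairs, and of 0.03 after group means were removed, as a description with shared arrays and scaling behind it. Genes outside the group were ranked by the likeness of their pattern over these 42 arrays to the members' mean deviation. That mean takes in values listed at 0, such as those of Rpl27, Rpl22 and Rpl7l1 on RAD001 replicate 6 of 15 d. How far such values shape the ranking was not tested. The most alike were Ccnd1, the cyclin D1 gene (r = 0.71), the RNA helicase gene Ddx17 (r = 0.69), Hoxa11os (r = 0.69), the ubiquitin ligase gene Rnf167 (r = 0.68) and Stx5a (r = 0.68). Among the 40 most alike probe sets are those of the smooth muscle list's Myh11 (r = 0.65), Mylk (r = 0.64) and Tagln (r = 0.63), a list that moved with the genotype, and the part of cell type makeup in this likeness was not tested.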
